A study of Homo sapiens with 24 samples.

Results

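Solvent-treated MOLT4 cells are described here as 1 condition: the levels of 9822 genes in 12 of the 24 libraries of a drug time course. MOLT4 is an established human line from a T-cell acute lymphoblastic leukaemia. The 12 libraries came from cells that received only DMSO, the solvent of the compound SK-3-91, and that were harvested 1, 4 or 8 h later, with 4 replicates per harvest. All of them carried the same genotype and the same RPMI1640 medium with 10% serum. Apart from the replicate number, harvest time is the only difference that their labels record. The other 12 libraries came from cells given SK-3-91 and enter no comparison here. The labels do not say whether replicates were separate cultures, so a p-value here speaks only of differences among these libraries, and that spread could be technical. It is 1 cell line from 1 leukaemia.

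A T cell reads antigen through its receptor, whose signal leaves the cell surface by way of the CD3 chains and the kinases LCK and ZAP70. While it matures in the thymus, a T-cell precursor passes through stages marked by CD1, CD4 and CD8, cuts and joins its receptor genes with the RAG proteins, and adds bases at the joints with terminal transferase. Notch signals and the factors TCF7, LEF1, GATA3 and BCL11B set and hold T identity, and T-cell leukaemia often keeps parts of this programme together with high MYC, MYB and cyclin D3.

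The 12 libraries held 13.57 to 14.63 megareads of counts each. Levels are given as RPKM (reads per kilobase of gene and megaread of library), computed here from the counts, edgeR's TMM scaling factors and the gene width deposited beside the counts. Only this scale is used to set one gene against another, whereas CPM (counts per megaread) describe a gene's part of the sequencing. The table held 9453 of the 18971 protein-coding genes with several exons in GENCODE release 29, and 4 of the 980 with 1 exon. A listed gene outside the table was not analysed here. Between any pair of libraries, Spearman's correlation of the levels ran from 0.985 to 0.999 over 66 pairs, across genes, which are not independent.

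Among the genes of the table, the most abundant transcripts included those of the cytoskeleton, glycolysis and protein synthesis. ACTG1, cytoplasmic gamma-actin, ranked first, with 2531 RPKM in the lowest library, a median of 2704 and 3430 in the highest. GAPDH, the glycolytic dehydrogenase, came next at 2242 ± 153 RPKM (SD, n = 12), followed by the ribosomal protein genes RPS6 (1728 ± 105) and RPLP1 (1656 ± 126). ARHGDIB, an inhibitor of small GTPases and a gene of blood cells, ranked 5th, with 1411, 1521 and 1681 RPKM as its lowest, median and highest values. The remaining genes above 1000 RPKM were ACTB, MIF, RPL8, RPL11 and EEF2, the translocase of elongation, at 1001 ± 46.4.

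ADA is the enzyme that clears deoxyadenosine, to which T-cell precursors are known to be sensitive. It ranked 15th per length at 786, 837 and 975 RPKM (lowest, median, highest), and its lowest value lay above the highest value of CD3E, 589 RPKM. The actin regulators CFL1 (915 ± 52.3 RPKM), TMSB10 (913 ± 86.5) and PFN1 (760 ± 49.1) stood among the first 20, as did the chaperones CALR (881 ± 47), HSPA8 (826 ± 264) and HSP90AB1 (812 ± 69.4). ITM2A, a membrane protein of thymocytes, stood at rank 26 with 613 ± 52.8 RPKM and was singled out after its value was seen. Of the first 20 genes, 16 were among the first 20 in every library, and of the first 10, 9 were.

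Some of these ranks carry a doubt about read assignment. ACTB, GAPDH, HSPA8, HSP90AB1 and PABPC1 shared from 25.3% to 37.7% of the 32-base words of their coding transcripts with another locus. MIF, an inflammatory cytokine, had 61.9% of its exon bases opposite exons of another gene, and the strand setting of the counting was not given. Gene length mattered as well. With the full exon length of GENCODE in place of the deposited width, 14 of the first 20 genes stayed, but RPLP1 stood at 299.7 RPKM and RPS6 at 609, GAPDH at 1361, ARHGDIB at 970 and ADA at 534.

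**Figure D1:**
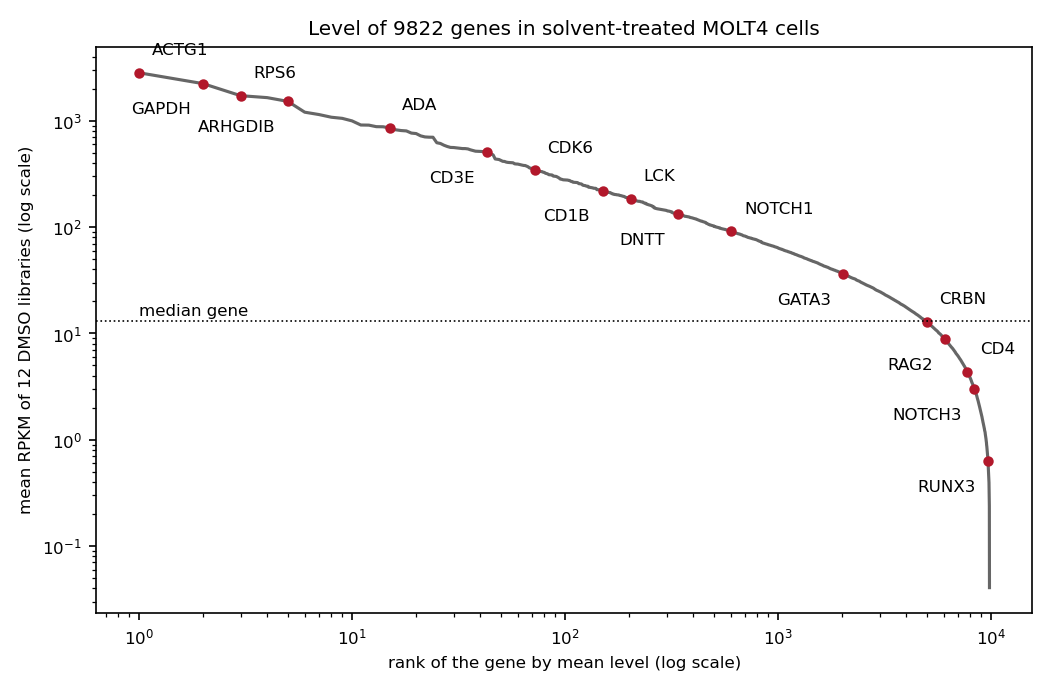
Mean level of each gene over the 12 DMSO libraries in RPKM (vertical axis, log scale) against its rank (horizontal axis, log scale), with 17 genes marked and the median gene as a dotted line. The curve falls from ACTG1 at 2839 RPKM through CDK6 at 342 and CRBN near the median gene at 13.16 RPKM to RUNX3 at 0.633.

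At the same level a long transcript collects more reads, so the ranking by share of reads differed. CDK6, a kinase that drives entry into the cell cycle with D-type cyclins, was second of all genes in CPM and 72nd per length, with a width of 11942 bases. TCF7, the transcription factor also called TCF-1, was 7th in CPM and 44th per length. Of the first 20 genes of either ranking, 10 stood in both. Across genes, Spearman's correlation of width was -0.31 with RPKM and 0.15 with CPM, and the first 100 genes per length had a median width of 1844 bases against 3896 for the table.

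Counted reads were spread over many genes. The first 10 genes held 3.43 ± 0.197% of the counts (SD, n = 12) and the first 100 held 14.2 ± 0.279%. It took 1106, 1131 and 1160 genes (lowest, median and highest library) to reach 50% of the counts, or 11.6% of the table. The median gene stood at 13.16 RPKM, 515 genes reached 100 RPKM and 9471 reached 1 RPKM.

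Gene classes differed in their level. Among the classes drawn in the plot of class levels, cytosolic ribosomal protein genes had the highest median, 158.8 RPKM over 69 genes or 12.07 times the median gene at the deposited widths. Cytosolic chaperonins and heat-shock proteins followed at 126.2 RPKM over 28 genes, with 25 of them in the highest 10% of the table. The order of these leading classes turned with the length used: with GENCODE exon lengths, chaperonins and heat-shock proteins stood at 10.55 times the median gene and ribosomal protein genes at 7.87 times. Splicing factors and hnRNP genes had a median of 94.8 RPKM (68 genes), led by HNRNPA2B1 at 545 ± 22.5, a binder of pre-messenger RNA. Nuclear-encoded oxidative phosphorylation subunits stood at 76.5 RPKM (74 genes), led by ATP5F1B, the catalytic beta subunit of ATP synthase, at 549 ± 35.9.

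Growth and division genes formed the next tier. Proteasome subunits had a median of 62.2 RPKM (42 genes, PSMA7 highest at 302.1), mitosis genes 47 RPKM (45 genes, TOP2A highest at 163) and DNA replication genes 43.9 RPKM (48 genes). PCNA, the sliding clamp of DNA polymerase, led the replication list at 416 ± 43.6 RPKM, ahead of the helicase subunit MCM7 at 358 ± 30.4. Glycolysis genes ranged most widely among these, from 1.6 RPKM to GAPDH at 2242, around a median of 39.8.

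Protein kinases, zinc-finger genes, noncoding transcripts and most solute carriers had class medians at or under the median gene. The 290 measured protein kinase genes had a median of 13 RPKM, or 0.991 times that of all genes, and 143 of them lay above the median gene. The mitochondrial carriers of the SLC25 family were higher, at 16.7 RPKM (36 genes). Solute carriers outside SLC25 stood at 7.71 RPKM (127 genes), ZNF zinc-finger genes at 6.08 (352 genes) and long noncoding and host transcripts at 4.72 (191 genes). The 352 ZNF genes together held 1.42 ± 0.0544% of the counts, less than the 1.61 ± 0.11% held by 21 glycolysis genes. Among the ZNF genes 3 reached the highest 10% of the table: ZNF22, ZNF428 and ZNF207. ZNF22 and ZNF428 overlap opposite exons over 45.3% and 27.6% of their bases, so their levels are uncertain.

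**Figure D2:**
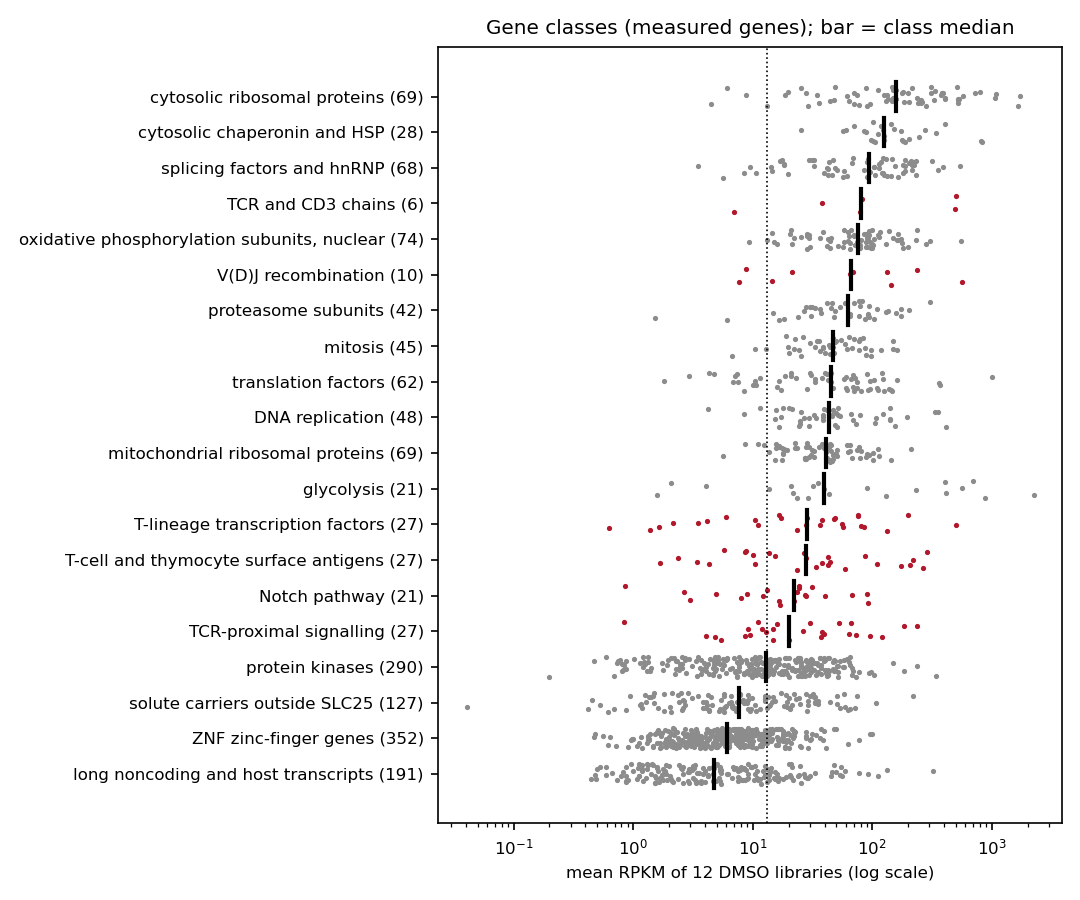
Mean RPKM over the 12 DMSO libraries (horizontal axis, log scale) of each measured gene in 20 classes, with the number of genes in brackets, T-lineage lists in red, the class median as a bar and the median gene as a dotted line. At these deposited widths the ribosomal protein genes have the highest median at 158.8 RPKM, an order that turns with GENCODE exon lengths, and the long noncoding and host transcripts the lowest at 4.72.

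Ribosomal protein genes encode parts of 1 machine whose subunits are needed in equal numbers, yet their measured levels were far apart. The highest, RPS6, stood 385 times above the lowest, RPS7, which was at 3.92, 4.4 and 5.09 RPKM in its lowest, median and highest library. Of the 69 genes, 46 reached 100 RPKM. The 3 lowest were RPS7 (4.48), RPS3A (6.1) and RPS26 (8.88), named after their values were seen. Genes of this class are known for many processed copies elsewhere in the genome. The 3 shared 48.2%, 84.6% and 36.2% of their words with other loci, so their levels are uncertain.

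In all, 36 of the 69 shared at least 20% of their words with another locus. The other 33 had a median of 180.4 RPKM and 13.6 times the median of the table's genes under that limit. Across the 69 genes, Spearman's correlation of the level was -0.22 with the shared percentage and -0.40 with the width, a description over genes that share libraries. RPKM divides the counts by the deposited width, yet wide genes differed in level: RPL27A had a width of 4979 bases and stood at 36 RPKM, and RPL28 with 5283 bases at 134. The class held 2.1%, 2.24% and 2.46% of the counts in the lowest, median and highest library.

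**Figure D3:**
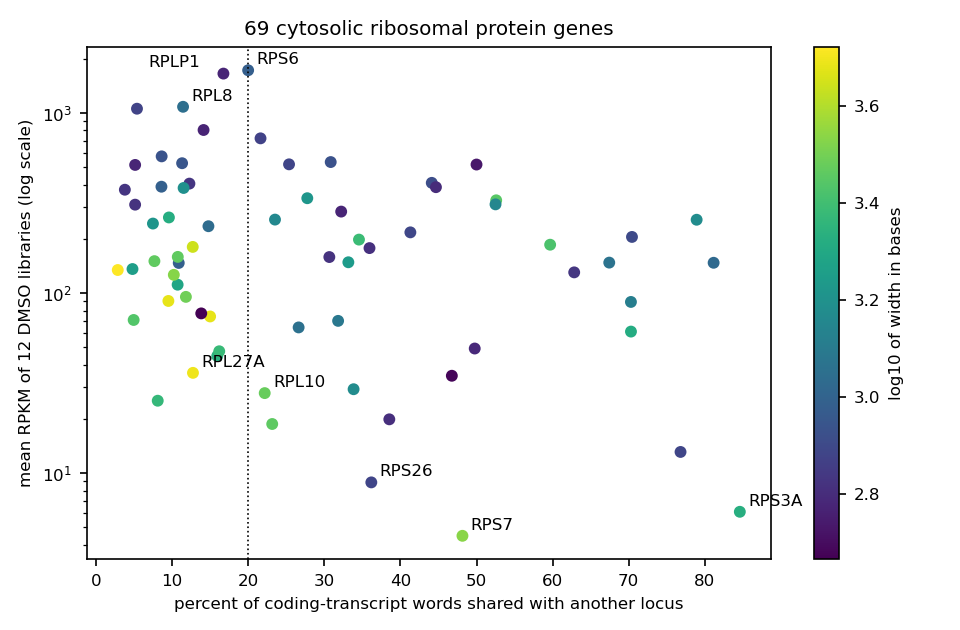
Mean RPKM over the 12 DMSO libraries (vertical axis, log scale) of the 69 cytosolic ribosomal protein genes against the percent of 32-base words of their coding transcripts found at another locus (horizontal axis), coloured by the log10 of the deposited width; the dotted line marks 20%. Genes above 1000 RPKM all lie under 20%, and RPS7, RPS3A and RPS26 lie over it.

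The start sites of many of these genes share a feature that the choice of genes did not use. Messenger RNAs of the translation machinery are known to begin with a C followed by a run of pyrimidines, the 5′ terminal oligopyrimidine tract through which mTOR signalling controls their translation. The stretches below run from 20 bases before to 10 bases after the start given by RefSeq (GRCh38.p14), with such a run in capitals. They are shown for abundant genes with and without the run, including the 4 ribosomal protein genes of the first 20 with a promoter in the RefSeq table. RPL27A, EEF1A1 and TPT1 were added with their letters known.

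RPS6, chr9:19380227-19380256, minus strand: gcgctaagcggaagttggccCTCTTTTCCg
RPLP1, chr15:69452798-69452827, plus strand: gctgcgtataggcgcgagagCCCCTTTCCT
RPL27A, chr11:8682772-8682801, plus strand: gagacttggcgaaggccttcCTTTTTCgtc
EEF2, chr19:3985454-3985483, minus strand: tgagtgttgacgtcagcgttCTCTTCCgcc
EEF1A1, chr6:73521023-73521052, minus strand: cagtagtcgccgtgaacgttCTTTTTCgca
TPT1, chr13:45341174-45341203, minus strand: tggggagcggctgagtcggcCTTTTCCgcc
RPL11, chr1:23691759-23691788, plus strand: gagcccgcctcctggcccataaggccctcg
RPL27, chr17:42998399-42998428, plus strand: cctcaccggggtgaaaggttagcggaagtg
ACTG1, chr17:81512790-81512819, minus strand: cgggggaggccgcggtcggtctcagtcgcc
GAPDH, chr12:6535244-6535273, plus strand: tgcgcagcgggtgcatccctgtccggatgc
ARHGDIB, chr12:14948887-14948916, minus strand: ctgaaatcattagagcaggcacacacacac

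The first 6 stretches carry the run at the start base and the last 5 hold none within 5 bases of it, the ribosomal protein genes RPL11 and RPL27 among them. The run was defined as a C within 5 bases of the start that opens at least 6 pyrimidines, read on the gene's strand. It was present in 41 of the 55 ribosomal protein genes with a promoter in the RefSeq table (74.5%), against 11.7% of 8103 matched genes and 11.0% of 27305 RefSeq promoters. By level the share was 30.5% in ranks 1 to 100 (82 genes), 16.7% in ranks 101 to 1000, 11.1% in ranks 1001 to 5000 and 10.8% beyond. Without ribosomal protein genes, it was 18.8% of 64 genes in the first 100 ranks. A match describes letters in a window and does not show how a gene is controlled.

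The run did not go with 1 level. EEF1A1, which delivers aminoacyl-tRNA to the ribosome, was at 21 ± 1.1 RPKM, low beside EEF2, and shared 28.7% of its words with other loci, so its level is uncertain. TPT1, a growth-linked protein whose messenger is of this kind, stood at 702 ± 38.2 RPKM, and was named after its value was seen. The letters TATAAA between 40 and 15 bases before the start, on the gene's strand, were in 8.54% of the first 100 genes and in 2%, 0.71% and 1% of the 3 lower rank groups, beside 1.05% of the table's genes and 2.54% of RefSeq promoters.

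T-cell identity was plain in the CD3 chains, which carry the receptor's signal. CD3E, at 466, 479 and 589 RPKM in its lowest, median and highest library, and CD3D, at 442, 493 and 534, ranked 43rd and 45th of all genes. Their ranges overlapped. CD247, the zeta chain (70.3 to 90.9 RPKM), and CD3G (72 to 88) overlapped each other and lay 5.94-fold and more below CD3D. That gap was wider with GENCODE exon lengths, which put CD3D at 444 RPKM, CD247 at 44.4 and CD3G at 42.5. PTCRA, the pre-receptor alpha chain of immature cells, was far lower at 6.93 ± 1.41 RPKM (10.7 with exon lengths), and the adaptor TRAT1 was at 37.8 ± 2.98. The receptor's own constant-region genes were not analysed here.

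Surface antigens showed a split between CD1 and the coreceptors. CD1B (203, 222 and 236 RPKM) and CD1E (188, 201 and 229) of the lipid-presenting CD1 family, a mark of cortical thymocytes, overlapped, and CD1A lay 2.37-fold lower at 87.6 ± 5.8. CD1C (15.4 ± 1.01) and CD1D (8.78 ± 0.895) were lower still. The coreceptors CD8A (4.96, 5.86 and 6.72 RPKM) and CD4 (2.73, 4.35 and 6.25) overlapped and lay under the median gene, as did CD8B at 2.36 ± 0.322. CD8B shares 49.2% of its words with another locus and is uncertain.

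Other surface genes filled the range between. The chemokine receptor CXCR4 (251, 292 and 326 RPKM) and IL2RG (233, 252 and 318), the common chain of several cytokine receptors, were the highest of the 27 measured at the deposited widths. With GENCODE exon lengths CXCR4 stood at 296 RPKM and IL2RG at 162, below CD1B at 282 and CD1E at 264. The pan-T antigens CD5, CD2 and CD7 stood at 59.8 ± 2.4, 44.5 ± 2.18 and 42.7 ± 5.39 RPKM. The gut-homing receptor CCR9 was at 42.9 ± 7.31, and CCR7, which guides mature cells to lymph nodes, was the lowest at 1.67 ± 0.207. CD2 (40.6 to 47.8) and CD7 (35.7 to 54.2) overlapped, and CD5 (56.2 to 64.3) lay above both in every library.

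**Figure D4:**
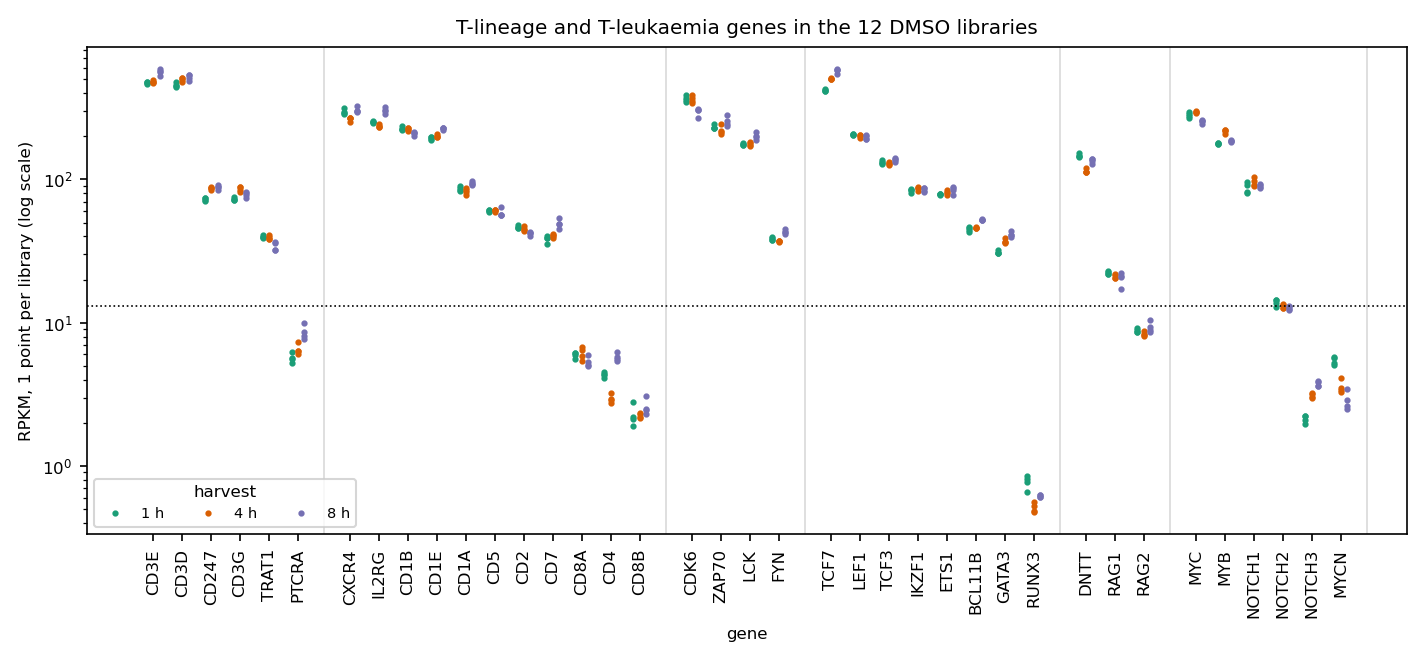
RPKM of 38 T-lineage and T-leukaemia genes (vertical axis, log scale), with 1 point for each of the 12 DMSO libraries coloured by harvest time and the median gene as a dotted line. CD3E and CD3D lie near 500 RPKM, whereas CD4, CD8A and CD8B lie under the median gene in every library.

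The kinases ZAP70 and LCK were the highest of 27 measured genes that act next to the T-cell receptor, at the deposited widths. ZAP70, which binds the phosphorylated CD3 chains, was at 207, 231 and 280 RPKM, and LCK, the SRC-family kinase that phosphorylates them, at 171, 179 and 213. Their order turned with GENCODE exon lengths, which put ZAP70 at 144 RPKM and LCK at 156. ZAP70 was the only measured member of its family. Among the SRC-family kinases LCK exceeded FYN (39.5 ± 2.87) by 4.65-fold, and FYN exceeded BLK (26.2 ± 1.6) and SRC (15 ± 1.33), with no overlap between neighbours. Other genes of the list, such as the adaptor SH2D1A (121 ± 11) and THEMIS (73.3 ± 11.1), a thymocyte signalling protein, were also above the limit of the highest 10% of genes, 64.7 RPKM.

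CDK6 ranked first of the 290 measured kinase genes and held 12.1% of their counts. Its lowest, median and highest values were 270.2, 351 and 389 RPKM, all above the highest value of CDK4, 159. CDK4 overlaps opposite exons over 43.2% of its bases and is uncertain. CDK2 followed at 104 ± 4.16 RPKM. Of 5 kinase genes at or above 100 RPKM, ZAP70, LCK and the 3 CDK genes made up the whole. Among D- and E-type cyclins, CCND3, the partner of CDK6 in lymphoid cells, was at 202, 205 and 276 RPKM, 8.14-fold above CCNE2.

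Several paralog families had 1 leading member at the deposited widths, and the orders in this paragraph were not checked with GENCODE exon lengths. Among the Janus kinases TYK2 (24.7 ± 2.04 RPKM) exceeded JAK1 (14.6 ± 0.963), JAK3 (8.07 ± 0.469) and JAK2 (2.74 ± 0.298), each neighbour without overlap. STAT5A led the STAT factors at 114 ± 6.6 RPKM, ahead of STAT5B at 61.3 and STAT3 at 55.3, which overlapped. Of the class I PI3K catalytic subunits, PIK3CG (24.7) exceeded PIK3CB (7.58), PIK3CA (6.54) and PIK3CD (4.55), and neighbours among the last 3 overlapped. The chromatin remodelling ATPase SMARCA4 was 12.1-fold above SMARCA2, and the histone methyltransferase EZH2 6.98-fold above EZH1.

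Survival genes of the BCL-2 family were ordered with BCL2L1 on top at the deposited widths, which was not checked with GENCODE exon lengths. BCL2L1, which encodes BCL-XL, was at 74.6 to 86 RPKM, and MCL1, another inhibitor of apoptosis, at 49.5 to 56.9, without overlap. BCL2 itself stood at 5.5 (4.84 to 6.53), and the killers BAX and BAK1 at 39.7 and 12.9. Of the 16 listed family genes, 11 were measured.

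Transcription factors of the T lineage were led by TCF7 at 412, 504 and 588 RPKM, 2.48-fold above its relative LEF1 at 191, 204 and 209. Both act at the end of Wnt signalling and are needed for T-cell precursors. With GENCODE exon lengths TCF7 stood at 259.5 and LEF1 at 171 RPKM. TCF7L2, of the same family, lay at 5.62, 35.8-fold below LEF1. The E protein TCF3, a helix-loop-helix factor, was at 133 ± 4.75 RPKM, TCF12 at 38.1 ± 1.61 and TCF4 at 1.39 ± 0.0843.

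The remaining lineage factors were spread over the range. IKZF1, a zinc-finger factor of lymphoid cells, was 7.63-fold above the next Ikaros gene, IKZF5, at 84.8 ± 2.56 RPKM. ETS1 (81.3 ± 3.77), TOX (76.5 ± 9.17), BCL11B (47.8 ± 3.61) and GATA3 (36.5 ± 4.53) were all above the median gene. ERG and FLI1, ETS factors of early blood cells, overlapped at 16.5 ± 1.92 and 17.1 ± 2.15 RPKM. RUNX2 (2.17 ± 0.669) and RUNX3 (0.633 ± 0.124) were near the lower end, and RUNX1 was not analysed here.

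MYC and MYB were the highest of the oncogenes of T-cell leukaemia. Of 26 listed, 10 were measured, with a median of 26.8 RPKM, and 6 of them lay above the median gene. MYC, a driver of growth, stood at 245, 283 and 301.1 RPKM, 70.3-fold above MYCN, and MYB at 176, 186 and 221. The lowest were MYCN at 3.95 RPKM and LMO2, a partner in stem-cell transcription complexes, at 4.49 ± 0.436. Among tumour suppressors, RB1 was at 79.3 ± 4.18 RPKM and FBXW7, which marks NOTCH1 and MYC for destruction, at 10.4 ± 0.536.

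NOTCH1 was the highest of 3 measured Notch receptors, at 80.3, 91.6 and 104 RPKM, 6.91-fold above NOTCH2 (12.3, 13 and 14.5), which was 4.41-fold above NOTCH3 (1.95, 3.1 and 3.88). None of these ranges met. Of the pathway's other parts, the gamma-secretase subunit APH1A (92.8 ± 4.88 RPKM) was highest. The nuclear partner RBPJ was at 27.6 ± 0.997 and the target HES1 at 27.7 ± 3.44.

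Recombination genes were present at unequal levels. DNTT, the terminal transferase of immature lymphocytes, was at 112, 137 and 154 RPKM, and the DNA-bending protein HMGB2 at 563 ± 45.6. RAG1, the recombinase subunit that cuts, stood at 17.2, 21.6 and 22.8 RPKM, above RAG2 at 8.01, 8.69 and 10.4 in every library. RAG2 overlaps opposite exons over 26% of its bases and is uncertain. The end-joining genes XRCC5 (236 ± 7.74), XRCC6 (142 ± 8.03) and PRKDC (68.5 ± 7.74), which all cells use, were higher than LIG4 (14.5 ± 0.884) and XRCC4 (7.72 ± 0.696). XRCC6 shares 29.8% of its words with another locus.

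Over all 159 measured genes of the identity and T-leukaemia lists, the median was 26.7 RPKM, 2.03 times the median gene. In the highest 10% of the table stood 42 of them (26.4%), and 21 (13.2%) were under 5 RPKM, beside 24.1% of the table's genes. The lists were made from knowledge of T cells with results of these data known, so their place is a description.

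Promoters of these genes differed among themselves in base composition. The stretches below run from 150 bases before to 5 bases after the RefSeq start (GRCh38.p14) and are shown for genes on which the account of T identity rests. Capitals mark matches on either strand to GGGCGG (the GC box), to CCGGAAG (the core of ETS sites) or to TGTGGTT (the core of RUNX sites), and none of the other letters listed after the stretches match in them. Overlapping matches run together. The pyrimidine run defined above for start sites is not marked here, and it was present at the starts of CD3D (6 bases) and TCF7 (11 bases).

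CD3D, chr11:118342701-118342855, minus strand: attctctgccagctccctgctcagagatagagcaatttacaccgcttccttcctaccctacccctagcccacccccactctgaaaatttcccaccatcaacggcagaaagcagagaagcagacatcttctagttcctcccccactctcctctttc
LCK, chr1:32251115-32251269, plus strand: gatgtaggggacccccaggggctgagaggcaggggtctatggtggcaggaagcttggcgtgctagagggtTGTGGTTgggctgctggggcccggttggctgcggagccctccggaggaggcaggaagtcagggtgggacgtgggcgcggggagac
LEF1, chr4:108166297-108166451, minus strand: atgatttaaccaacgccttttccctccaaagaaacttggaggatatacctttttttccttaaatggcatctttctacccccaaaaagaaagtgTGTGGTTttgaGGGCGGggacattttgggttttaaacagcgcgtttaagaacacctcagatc
TCF7, chr5:134115463-134115617, plus strand: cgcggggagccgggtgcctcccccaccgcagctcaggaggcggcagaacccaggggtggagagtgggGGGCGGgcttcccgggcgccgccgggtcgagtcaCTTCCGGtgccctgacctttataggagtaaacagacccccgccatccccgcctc
CDK6, chr7:92836569-92836723, minus strand: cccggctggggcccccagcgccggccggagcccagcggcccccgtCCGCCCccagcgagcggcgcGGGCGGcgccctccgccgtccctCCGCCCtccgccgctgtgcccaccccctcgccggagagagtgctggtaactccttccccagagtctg
ADA, chr20:44651695-44651849, minus strand: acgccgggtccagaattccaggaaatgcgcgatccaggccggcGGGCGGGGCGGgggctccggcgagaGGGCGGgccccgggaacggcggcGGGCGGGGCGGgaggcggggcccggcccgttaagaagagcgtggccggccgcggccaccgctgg

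CD3D held none of the marked letters in its stretch, LCK and LEF1 each held TGTGGTT, and ADA held 5 copies of GGGCGG. In the 250 bases before the start, GGGCGG was in 45.8% of the 120 genes of the identity and T-leukaemia lists with a promoter. It was in 68.9% of the table's genes and in 42.3% of RefSeq promoters. TGTGGTT was in 12 of the 120 (10.0%), in 2.53% of the table's genes and in 3.63% of RefSeq promoters. The other letters searched, on both strands, gave these shares of the 120 listed genes and of the table's genes. CCGGAAG was in 12.5% against 21.3%, CCAAT in 27.5% against 35.8%, CACGTG in 5.83% against 9.65%, CAGCTG in 13.3% against 12.3% and AGATAA in 5% against 4.26%. The window of CCGGAAG also took in the 50 bases after the start. Median GC content over the 300-base windows was 62.2% and 65.7%. No binding was measured, so these are counts of letters.

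Few of the listed markers of other lineages were in the table. Of 95 listed genes for B, myeloid, erythroid, natural killer, epithelial, stromal and stem cells, 12 were in it. Of 14 natural killer and cytotoxic genes 0 were. The table held 159 of 223 listed identity and T-leukaemia genes and 9453 of 18971 protein-coding genes with several exons. Absence from the table does not show a low level. The defining B-cell genes MS4A1 and PAX5 were not analysed here. IGLL1, a surrogate light chain gene of B-cell precursors, was high at 187, 229 and 299.4 RPKM, and its partner VPREB1 stood at 22 ± 4.18. The complement receptor CR2 was at 9.73 ± 1.93 and the B-cell receptor chain CD79A at 6.52 ± 0.883. The myeloid marker CD68 was at 1.08 RPKM, the stem-cell marker CD34 at 8.44 and TFRC, the transferrin receptor of all dividing cells, at 123. Their part in any level above was not tested.

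The ubiquitin ligase that CRBN-binding compounds use was measured in most of its parts. Of 26 listed genes of this ligase and of neddylation, 24 were measured, with a median of 34.4 RPKM, and 7 stood in the highest 10% of the table. CRBN, the substrate receptor, stood at 11.5, 12.7 and 14.9 RPKM, near the median gene. DDB1, which links it to the cullin, was within the highest 10% at 95.1 ± 1.37 and the cullin CUL4A at 33.1 ± 1.42. With GENCODE exon lengths CRBN was at 4.49. These 3 genes were singled out with their values known.

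Levels were not constant over the 8 h of culture in solvent. An edgeR test over the 3 harvest times called 5942 of 9818 tested genes (60.5%) at an adjusted p under 0.05. From 1 to 8 h, 2439 genes were called higher (24.8%) and 2368 lower (24.1%). Most shifts were small: the median size was 0.139 on the log2 scale over all genes, and 48 higher and 19 lower genes passed 2-fold. Harvest time and time in solvent cannot be told apart, since every harvest had its own libraries and no untreated cells were compared here.

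Of the 159 genes of the identity and T-leukaemia lists, 49 (30.8%) were called higher and 57 (35.8%) lower at 8 h. Of all tested genes, 24.8% and 24.1% were. The lists include genes that all cells use. Among their called genes 2 passed 2-fold, both higher. DTX1, a Notch-linked ubiquitin ligase, gave 18.9, 20.2, 20.4 and 21.8 CPM at 1 h, between 45.1 and 48.8 at 4 h and 58.7, 61.7, 56.1 and 58.4 at 8 h (log2 difference 1.53, edgeR adjusted p = 1.1e-17). CD69, an early activation antigen, gave 15.9, 14.8, 12.1 and 14.7 CPM at 1 h and 33.4, 34.1, 37.2 and 34.4 at 8 h (1.27, adjusted p = 2.1e-13). In both genes the 8 h libraries lay above all 1 h libraries.

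TCF7 also rose, from 2179, 2154, 2218 and 2245 CPM at 1 h to 3077, 2840, 3033 and 3058 at 8 h (log2 difference 0.45, edgeR adjusted p = 6.3e-12), whereas CDK6 fell by 0.30 (adjusted p = 2e-06). ID3, an inhibitor of E proteins, fell by 0.88 (adjusted p = 1.1e-10). LEF1 (-0.06, adjusted p = 0.087), IKZF1 (0.01, 0.83), NOTCH1 (0.05, 0.4) and CD5 (-0.05, 0.34) did not pass the edgeR test of 8 h against 1 h. NOTCH1 was still called over the 3 harvest times, with means of 87.3, 95.7 and 90.3 RPKM at 1, 4 and 8 h.

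Other classes moved more to one side, whereas 24.8% of all tested genes were called higher at 8 h and 24.1% lower. Of 45 mitosis genes 39 were called higher at 8 h and 1 lower, with PLK1, a mitotic kinase, at 157, 164, 146 and 163 CPM at 1 h and 269, 270, 278 and 297 at 8 h (log2 difference 0.82, edgeR adjusted p = 6.6e-15). In bulk RNA, more cells in a phase and more RNA per cell cannot be told apart. Of 48 DNA replication genes 4 were higher and 28 lower, among them PCNA, which fell by 0.31 on the log2 scale (edgeR adjusted p = 1.3e-08). Of 28 chaperone genes 22 were higher and 1 lower. HSPA8, a constitutive HSP70, was at 1630, 1623, 1454 and 1479 CPM at 1 h and 3269, 3495, 3396 and 3472 at 8 h (log2 difference 1.14, adjusted p = 8.6e-19), and it shares 37.7% of its words with other loci. Of 69 ribosomal protein genes, 18 (26.1%) were called over the 3 times, beside the 60.5% of all genes, and 12 were called higher and 7 lower at 8 h.

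ADM, a vasodilator peptide, had the largest increase by the rule for named genes. It was at 0.699, 0.634, 0.854 and 0.424 CPM at 1 h, 7.95, 10.4, 13.3 and 12.9 at 4 h and 36.2, 36.6, 43.6 and 49 at 8 h (log2 difference 5.97 ± 0.19, SE; edgeR adjusted p = 8.6e-19). BHLHE40, a circadian repressor, rose by 2.86 ± 0.07 and the glycolytic regulators PFKFB3 and PFKFB4 by 2.13 ± 0.05 and 2.05 ± 0.08. PFKFB4 did not rise at both steps: it was at 15.3 to 16.9 CPM at 1 h, lower in every 4 h library at 8.71 to 12.4, and at 62.1 to 74.5 at 8 h. MIR210HG (3.25), RAB20 (2.09) and the mitophagy receptor BNIP3 (1.99, 32.3% shared words) rose as well. DDIT4, an mTOR inhibitor, had a difference of 3.43 and overlaps opposite exons over 41.2% of its bases, so it is uncertain.

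The largest decreases were smaller. SLC30A1, a zinc exporter, gave 23.2, 22.5, 21.3 and 20.1 CPM at 1 h, 5.4 to 6.38 at 4 h and 4.42, 4.6, 4.76 and 3.38 at 8 h (log2 difference -2.34 ± 0.10, SE; edgeR adjusted p = 2.4e-16). SLC7A11, a cystine carrier, fell by 1.42 ± 0.11 and the ubiquitin ligase gene FBXO32 by 1.28 ± 0.08, both with their 4 h libraries already close to those of 8 h. CREBRF, ZMAT3, ZNF345 and MYO15B fell by 1.25, 1.13, 1.13 and 1.11. TEX19, at -1.30, overlaps opposite exons over 43.8% of its bases and is uncertain.

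**Figure D5:**
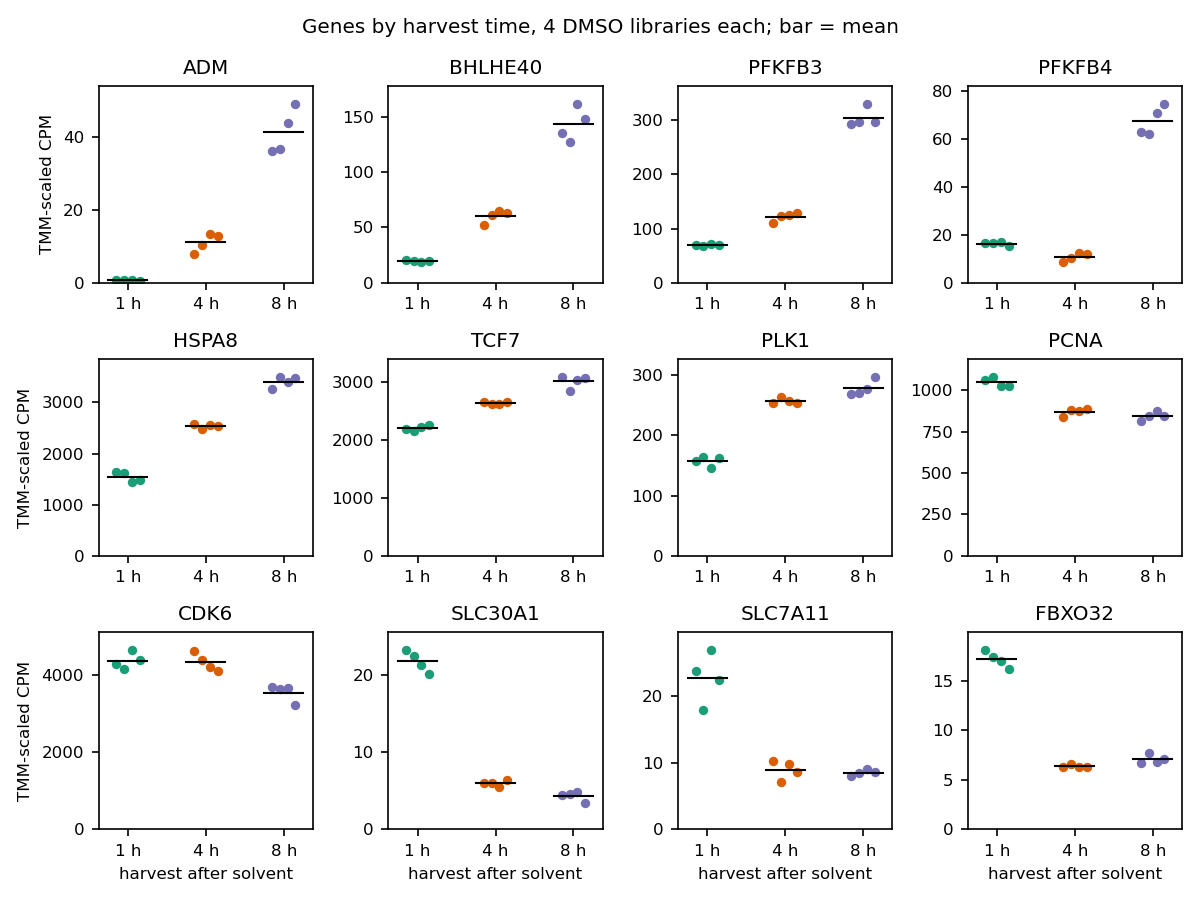
TMM-scaled CPM of 12 genes (vertical axes, from 0) in the DMSO libraries harvested at 1, 4 and 8 h (horizontal axis), with 1 point per library and the mean of 4 as a bar. ADM, BHLHE40, PFKFB3, PFKFB4, HSPA8, TCF7 and PLK1 are higher at 8 h in every library than in any 1 h library, and PCNA, CDK6, SLC30A1, SLC7A11 and FBXO32 are lower.

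Within a harvest time the replicates were close, though not evenly so. The mean chi-square per gene between the counts of a pair ran from 1.68 to 14.3 over 18 replicate pairs. All pairs thus differed by more than counting noise alone. The median gene had an SD of 0.078 in log2 CPM between replicates and a coefficient of variation of 8.3% over all 12 libraries. STMN1, a microtubule regulator of dividing cells (478 ± 11.1 RPKM), EIF4G2 (371 ± 9.16) and EZH2 (70.5 ± 1.24) were among the steadiest of the genes named here. The genes least steady between replicates, at 5 CPM or more, included WDR38, from 9.24 to 25.4 RPKM, PNPLA7 (0.411 to 1.11) and MARCHF1 (0.882 to 2.17). These ranges are over all 12 libraries and take in differences between harvest times.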

How the data were processed

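Per the labels' protocols, total RNA of MOLT4 cells was read from 1 end, 50 bases a read, with the BGISEQ-500. The authors deposited read counts per Entrez gene for 24 libraries, with a gene width in bases. The submitters' processing notes name edgeR and build hg19. The aligner, counter, strand setting and counting annotation are not given in the sources used here. Log2 values in a second table that the authors deposited follow the counts with no gene length, and that table served only for gene symbols.

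The median width was 0.83 of the GENCODE release 29 exon length and 1.09 of the longest transcript. Counts of the 12 DMSO libraries were scaled with TMM in edgeR 4.0.16 (R 4.3.3) and divided by width in kilobases for RPKM. Harvest times were tested with edgeR's quasi-likelihood F test after filterByExpr (9818 genes), with Benjamini-Hochberg adjustment at 0.05. The test was also run on simulated counts with the same spread for all genes and independent replicates. That run cannot show the error rate in these libraries, where spread may differ by gene. SD is over 12 libraries unless stated. The SE of a log2 difference is an approximation: the size of the difference divided by the square root of the test's F value. Fold changes assume that most genes keep their share. Genes with at least 20% of 32-base words shared with another locus, or of exon bases opposite another gene's exons, are given as uncertain. Motifs came from RefSeq promoters, matched by gene identifier for 8103 genes.

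Named genes were the 20 highest per length and per CPM, members of the identity, other-lineage and paralog lists, the 3 highest of each other class, the 8 largest increases and decreases at 8 h, and the 8 least steady. The members, lists and tests were chosen with earlier results of these data known. A few genes that the rule names are not reported here. Alternatives covered scaling, filtering, length, DESeq2, the replicate block and each library left out.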

Additional observations from a re-analysis of the deposited data

Results flagged for a closer look

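In 8 of the 156 groups of 4 libraries looked at, 1 library stood apart from the other 3 by a gap beyond Dixon's limit for 4 samples. Chance flags about 1 in 20 such groups. CDK6 was at 270.2 RPKM in the fourth 8 h library, and the nearest of the others was at 303.5. The same library had the lowest share of counts in mitosis genes at that time, 1.1% against 1.14%. RPS6 was at 1587 RPKM in the first 4 h library against 1741, and ARHGDIB at 1459 in the third 1 h library against 1521. The first 1 h library had CD3G at 75.2 RPKM against 72.4. DNTT stood at 119.6 RPKM in the second 4 h library against 113. In the fourth 1 h library ZAP70 was at 242.2 RPKM against 228.2 and GATA3 at 32 against 30.7.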

How the results depend on the processing

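The count of genes called over the 3 harvest times ran from 5522 to 5910 with 1 library left out, and calls higher at 8 h from 2159 to 2515 and lower from 2113 to 2359. The other fits gave 5657 (DESeq2) to 6323 calls. The highest came from the fit with the replicate number as a block (6323, with 2609 higher and 2569 lower). Same-numbered libraries did not pair uniformly: correlations of their deviations ran from -0.16 to 0.34 over 12 pairs, with 5 pairs over 0.1. For 4 of 12 libraries, the own number gave the highest correlation in both other harvests. Whether replicate numbers link libraries across harvests was not tested. No scaling factors gave 2212 higher and 2633 lower.

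Class values depended on length and on shared sequence. The ribosomal protein median was 7.87 times the median gene with GENCODE exon lengths and 13.6 times without genes that share sequence. The class share was 6.42% as TPM over the table's genes and 1.54% without genes that share sequence. For the genes of the identity and T-leukaemia lists the median ratio was 2.24 with exon lengths and 1.9 in the 4 h libraries alone. Their share was 3.2% as TPM and 3.88% without shared genes, against 3.76%. Counts per kilobase put 50% of the total in 852.4 genes instead of 1135, and the spread over all 12 libraries was 0.119 instead of 0.078. Those settings differ in the denominators, genes or libraries used, and the spread over all 12 libraries also takes in differences between harvest times. With 1 library left out, the medians ran from 12 to 12.1 and from 2 to 2.04, the shares from 2.23% to 2.26% and from 3.76% to 3.77%, and the genes for 50% of counts from 1133 to 1138. The genes at 10 or more times the median gene numbered 339 to 345, the first 20 genes kept 20, and the spread ran from 0.0735 to 0.0791. Of 37 single-gene levels 26 moved by more than 1 SD with exon lengths, 12 of them by over 1.5 times, and 0 with plain library totals or any library left out. With the 1 h, 4 h or 8 h libraries alone, 7, 5 and 16 of the 37 moved. As TPM, which is another scale, 37 moved. Depth limits the lowest levels: some libraries held 0 counts for a gene of the table.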
